A study of Aedes aegypti with 7 samples.

Results

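Between 6 h and 24 h after a blood meal, the fat body of the female yellow fever mosquito moves from early digestion towards the peak of yolk protein synthesis. The small RNA libraries of these 2 time points were compared here, miRNA by miRNA. They are 6 of the 21 libraries of a series that also holds small RNA libraries from 72 h post eclosion (PE, the time since the adult emerged) and from 36 h and 48 h post blood meal (PBM), together with libraries of RNA bound to the Argonaute protein AGO1 (CLIP-seq) from 72 h PE females and from the 24 h PBM stage. Each assay has 3 libraries at each time, which the series' design text calls independent biological replicates. Every group consisted of adult females of Aedes aegypti, strain UGAL/Rockefeller, that carried no transgene or drug according to the labels. Tissue labelled 72 h PE came from females before blood feeding, 3 or 4 days after emergence, and their cage mates were then fed blood and sampled at the later times. Females of the later ages that had not fed are not among the samples, so the time since the meal and the age of the female cannot be told apart. The libraries are of whole tissue. A lower level of a miRNA in them can come from fewer cells of a type or from less of that RNA per cell, and these cannot be told apart.

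MicroRNAs are short RNAs that guide Argonaute proteins to messenger RNAs, whose translation or stability is then reduced. A hairpin precursor can give a mature miRNA from its 5′ arm (5p) and another from its 3′ arm (3p), and usually one of the arms is loaded into Argonaute far more often than the other. In a mosquito that feeds on blood, digestion, nutrient sensing and the steroid hormone 20-hydroxyecdysone switch the fat body from storage to the secretion of vitellogenin, the main yolk protein. Eggs do not ripen without that switch, and several miRNAs, among them miR-8 and miR-275, are known to be needed for it.

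The table of the authors lists 124 mature miRNAs, and 114 of them had enough reads to be tested. The 6 libraries held 2789778 to 5266385 miRNA reads of 12887694 to 22013117 reads in total. As a share of all reads, miRNAs made up 23.0% ± 2.21 at 6 h and 23.5% ± 0.617 at 24 h (SD, n = 3), a difference of 0.424 percentage points (two-sided exact permutation test, p = 1.0, where the smallest possible p is 0.1). The sign of that difference rested on single libraries, since it was -0.849 points without the first 6 h library and 1.12 points without the second. Levels are given as CPM, counts scaled to a common total of miRNA reads after TMM correction. Reads of different miRNAs are ligated and amplified with different efficiency, so a level in CPM counts reads and not molecules. Across the tested miRNAs, libraries of the same time resembled each other more than libraries of different times. Spearman's rho was 0.985 to 0.987 among the 6 h libraries, 0.986 to 0.989 among the 24 h libraries and 0.865 to 0.920 between the 2 times.

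From 6 h to 24 h, 17 of the 114 tested miRNAs changed (14.9%, edgeR quasi-likelihood test, Benjamini-Hochberg adjusted p under 0.05). Of these, 13 were higher at 24 h (11.4%) and 4 were lower (3.51%). The miRNAs that rose fell into 2 kinds. The first kind were 7 miRNAs known from ovaries and early embryos, miR-989, miR-286b, miR-2941, miR-2944b-5p, miR-2946, miR-309a and miR-309b-3p, which stood at a handful of reads at 6 h and rose by 6.45 to 10.31 on the log2 scale. The second kind were 6 miRNAs with mean levels of 140 to 24124 CPM already at 6 h, which rose 1.46-fold to 3.67-fold. They were both arms of miR-263a, both arms of miR-276, miR-275-3p and miR-305-5p. The 4 that fell were miR-92a-3p, miR-278-5p, miR-124 and miR-12-3p. The number of calls, mainly of those lower, depended on the library scaling and the tool, with 13 higher and 7 lower under edgeR with RLE factors, and 16 higher and 10 lower under DESeq2. The median log2 change of all tested miRNAs was -0.02.

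**Figure D1:**
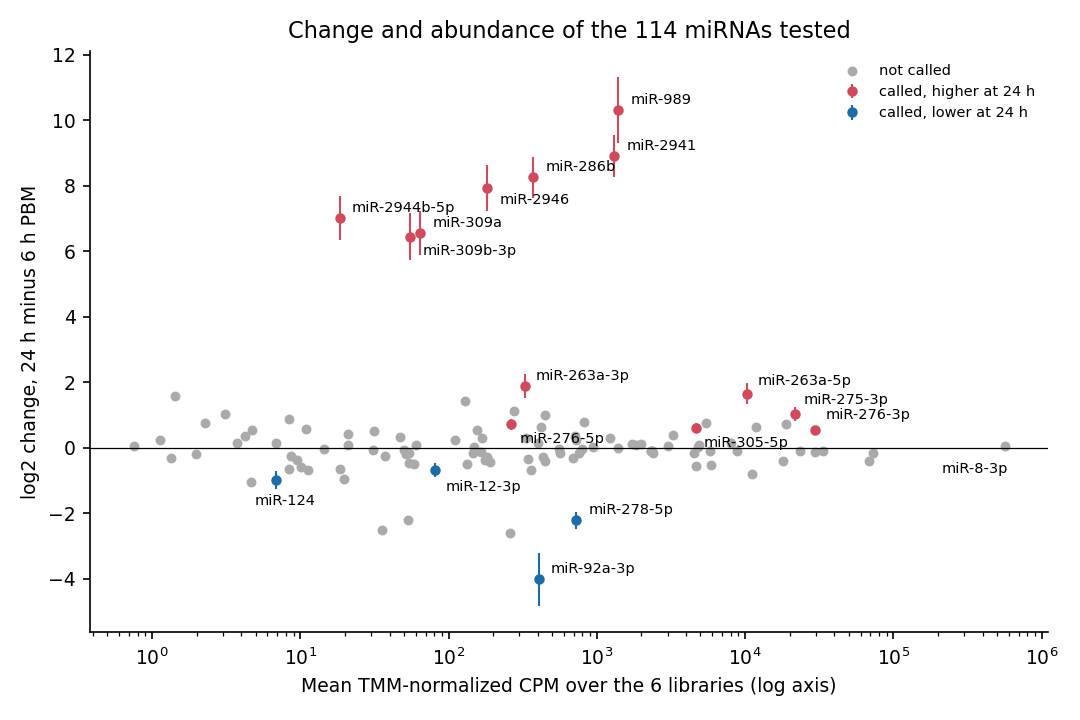
Change of each of the 114 tested miRNAs from 6 h to 24 h PBM (vertical axis, log2 fold change, with the SE as bars for called miRNAs) against its mean level over the 6 libraries (horizontal axis, CPM on a log scale). Marked are the 13 miRNAs called higher and the 4 called lower. The 7 called miRNAs of the ovary and embryo list and miR-92a-3p lie well outside the 97 that were not called, most of which lie within 1.5-fold of no change. Several other called miRNAs lie among those 97, such as miR-276-3p at a log2 change of 0.55, while miR-1174 at -2.59 was not called.

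The libraries of the 2 times did not overlap for 38 of the 114 tested miRNAs (33.3%), 19 of them with all 24 h libraries above all 6 h libraries and 19 with all below. Among the 17 called miRNAs, 16 showed no overlap, and miR-92a-3p was the exception. Of the 17, 12 changed more than 2-fold and 9 more than 4-fold. In shares of all miRNA reads, the 7 ovary and embryo miRNAs together went from 0.00142% at 6 h to 0.641% ± 0.364 at 24 h (SD, n = 3). The other 6 that rose went from 4.81% ± 0.631 to 8.36% ± 0.476, and the 4 that fell from 0.208% to 0.0357%. Most of the reads gained thus belonged to miRNAs with small fold changes, chiefly miR-275-3p, miR-263a-5p and miR-276-3p.

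miR-989 showed the largest fold change of the step. It is abundant in mosquito ovaries, and in the fruit fly it acts in the follicle cells of the ovary, where it is needed for border cell migration. It stood at 3.95, 1.43 and 1.39 CPM in the 6 h libraries, which is 12, 7 and 5 reads, and at 1375, 2036 and 4971 CPM in the 24 h libraries. The lowest 24 h library lay far above the highest 6 h library, and the 24 h libraries differed 3.62-fold among themselves. The mean went from 2.26 ± 1.47 to 2794 ± 1914 CPM (SD, n = 3), a log2 change of 10.31 (SE 1.0, edgeR adjusted p = 3.74e-06). Without the third 24 h library the log2 change was 9.60.

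miR-2941 and miR-2946 are mosquito miRNAs known from embryos and ovaries. In the CLIP-seq peak annotation, their precursors lie next to each other on the minus strand of AaegL3 supercontig 1.385, miR-2941-1 at 413191 to 413210 and miR-2946 at 413576 to 413598, with 366 bases between their peaks. Positions here and below are the extents of the CLIP-seq peaks as deposited, and the file does not state whether they count from 0 or 1. miR-2941 stood at 3.62, 6.52 and 5.84 CPM at 6 h and at 1456, 1892 and 4471 CPM at 24 h, a log2 change of 8.91 (SE 0.64, adjusted p = 5.65e-07). miR-2946 stood at 0.329, 1.63 and 2.23 CPM at 6 h and at 187, 288 and 607 CPM at 24 h, a log2 change of 7.94 (SE 0.70, adjusted p = 2.21e-06). Both were low in each 6 h library and high in each 24 h library, with the third 24 h library highest. Without that library their log2 changes were 8.27 and 7.34.

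miR-286b, miR-309a and miR-309b-3p belong to the families that in the fruit fly form an embryonic cluster which clears maternal messenger RNAs at the onset of zygotic transcription. In Aedes aegypti, miR-309 is also known to act in the ovary during follicle growth. miR-286b stood at 1.65, 2.65 and 2.78 CPM at 6 h and at 296, 708 and 1213 CPM at 24 h, and rose 305-fold (log2 8.25, SE 0.64, adjusted p = 6.44e-07). miR-309a stood at 0.988, 1.02 and 1.95 CPM at 6 h and at 55.4, 122 and 203 CPM at 24 h, and rose 94.5-fold (log2 6.56, SE 0.66, adjusted p = 5.11e-06). miR-309b-3p stood at 0.659, 1.02 and 1.95 CPM at 6 h and at 45.8, 102 and 178 CPM at 24 h, and rose 87.1-fold (log2 6.45, SE 0.71, adjusted p = 1.07e-05). In all 3, every 24 h library exceeded every 6 h library. How the authors divided reads shared by miR-309a and miR-309b is not given in the sources used here, so the split between these relatives is uncertain.

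miR-2944b-5p comes from another mosquito embryonic family. It had 1, 2 and 0 reads in the 6 h libraries and 118, 165 and 133 reads in the 24 h libraries, which is 30.7, 30.4 and 48.6 CPM at 24 h. The groups were far apart, but the size of the change is poorly fixed by 3 reads in all at 6 h. The ratio of summed reads, scaled by the miRNA reads of the libraries after TMM correction, was 133. Its 95% counting interval of 45.3 to 649 covers counting error only. The test gave an adjusted p of 3.74e-06, and the log2 change of 7.0 (SE 0.67) became 7.66 without the second 6 h library. For the other 6 of these low miRNAs, the reads at 6 h, summed over the libraries, ranged from 14 for miR-309b-3p to 64 for miR-2941.

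All 7 ovary and embryo miRNAs that rose were highest in the third 24 h library. This order was not particular to them, since every other called miRNA except miR-275-3p was also highest there. That includes miR-92a-3p, miR-278-5p, miR-124 and miR-12-3p, which fell in the step. For 6 of the 7 ovary and embryo miRNAs the lowest value was in the first 24 h library, and for miR-2944b-5p it was in the second. The whole list of 15 ovary and embryo miRNAs, of which 12 were tested, had 7 higher, none lower and 5 not called. Over all tested miRNAs, 11.4% were higher and 3.51% lower. The list had a median log2 change of 6.5 and a range of -0.33 to 10.31. Its members were chosen with earlier results of these data known, so its share of calls is not independent of them. Summed over the list, its share of miRNA reads was 0.120%, 0.0970% and 0.0754% in the 6 h libraries and 0.446%, 0.629% and 1.13% in the 24 h libraries. Most of the 6 h share was miR-2945-3p, which did not move with the others and stood at 933 ± 170 CPM at 6 h and 947 ± 69.4 CPM at 24 h (log2 0.02, adjusted p = 0.956). The other listed miRNAs that were tested and not called were miR-286a, miR-2944a-5p, miR-2944b-3p and miR-2945-5p, with log2 changes of 0.23, -0.33, 1.03 and 0.88. miR-309b-5p was at 0 in every library of the 5 times, and miR-2943 and miR-2944a-3p were under the filter. The part that ovary tissue in the fat body preparations had in these rises was not tested.

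**Figure D2:**
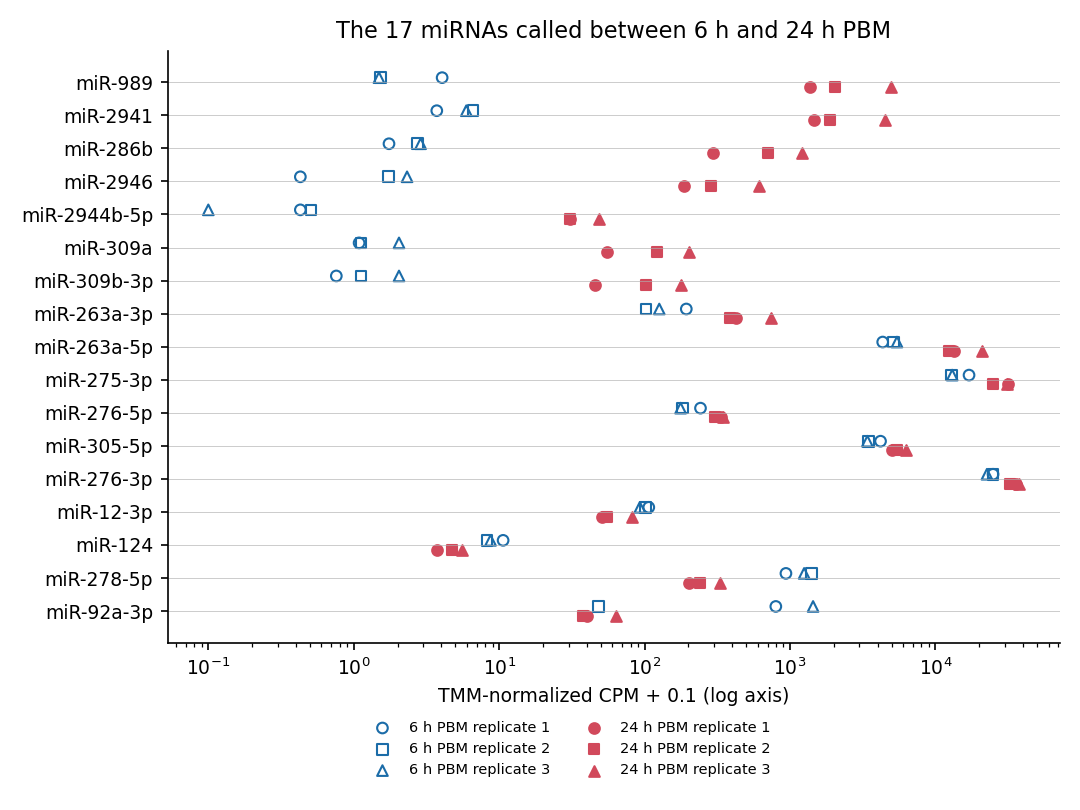
Level of each of the 17 called miRNAs in every library of 6 h and 24 h PBM (CPM + 0.1 on a log scale, 1 symbol per library). The 7 ovary and embryo miRNAs sit below 10 CPM in every 6 h library and above 30 CPM in every 24 h library, while the other called miRNAs move by less, and miR-92a-3p has 1 low library at 6 h.

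Of the second kind of risers, miR-275-3p gained the most reads. It is a miRNA without which this mosquito is known to digest blood poorly and to form few eggs. It stood at 17010, 12896 and 13035 CPM in the 6 h libraries and at 31404, 24836 and 31244 CPM in the 24 h libraries. The groups were well apart, with all 24 h libraries higher. The mean went from 14314 ± 2336 to 29161 ± 3746 CPM (SD, n = 3), a 2.04-fold rise (log2 1.03, SE 0.21, adjusted p = 0.00262). Its share of all miRNA reads went from 1.46% to 2.83%. miR-275-5p, the rarer arm, overlapped between the times at 564 ± 83.3 and 544 ± 250 CPM (log2 -0.05, adjusted p = 0.949).

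miR-305 lies near miR-275 in the genome, and in the fruit fly it is known to act in gut stem cells in response to nutrients. The CLIP-seq peaks of both precursors are on the plus strand of supercontig 1.24, at 486550 to 486615 for miR-275 and 495600 to 495660 for miR-305, 8985 bases apart. miR-305-5p stood at 4190, 3467 and 3402 CPM at 6 h and at 5014, 5454 and 6277 CPM at 24 h. Again all 24 h libraries were above all 6 h libraries, by a smaller margin than for miR-275-3p, and the 1.51-fold rise passed the test (log2 0.60, SE 0.14, adjusted p = 0.00802). A fit of the 6 compared libraries alone gave an adjusted p of 0.0543. miR-305-3p had a log2 difference of 0.31 (adjusted p = 0.460).

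Both arms of miR-276 rose, and both had groups that did not overlap. miR-276 is abundant in insects, and in Anopheles mosquitoes it is known to restrain amino acid metabolism in the fat body late in the reproductive cycle. miR-276-3p, among the most abundant miRNAs of the tissue, stood at 24875, 24913 and 22586 CPM at 6 h and at 35582, 32458 and 37644 CPM at 24 h, a 1.46-fold rise (log2 0.55, SE 0.11, adjusted p = 0.00262). miR-276-5p stood at 242, 183 and 177 CPM at 6 h and at 336, 305 and 346 CPM at 24 h, a 1.64-fold rise (log2 0.72, SE 0.16, adjusted p = 0.00607, and 0.0543 in the fit of the 6 libraries alone). The CLIP-seq peaks place miR-276 at a pair of loci, on supercontig 1.134 at 38985 to 39049 and on supercontig 1.5 at 2769503 to 2769572, and the counts of the mature arms do not separate them.

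miR-263a had the largest fold changes of the second kind, in both arms. In the fruit fly this miRNA is known to protect sensory bristle cells from cell death. miR-263a-5p, the major arm, stood at 4336, 5131 and 5434 CPM at 6 h and at 13431, 12430 and 21007 CPM at 24 h, a 3.15-fold rise (log2 1.65, SE 0.32, adjusted p = 0.00242). miR-263a-3p stood at 193, 102 and 126 CPM at 6 h and at 427, 386 and 734 CPM at 24 h, a 3.67-fold rise (log2 1.88, SE 0.36, adjusted p = 0.00242). In both arms the third 24 h library was the highest, as for every other called miRNA except miR-275-3p. All 24 h libraries were above all 6 h libraries.

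Among the miRNAs that fell, miR-278-5p showed the clearest separation. In the fruit fly, miR-278 is known to act in the fat body in energy balance and insulin response. miR-278-5p stood at 937, 1402 and 1250 CPM at 6 h and at 203, 239 and 328 CPM at 24 h. Every 24 h library was far below every 6 h library, and the mean went from 1196 ± 237 to 257 ± 64.1 CPM (SD, n = 3), a 4.66-fold fall (log2 -2.22, SE 0.25, adjusted p = 1.54e-05). The other arm of the same precursor did not fall with it, as the arm ratios below show.

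miR-92a-3p had the largest fold change downwards, and it rested on 2 of the 3 libraries of 6 h. In the fruit fly, miR-92a is known to act in neural stem cells and in the patterning of leg hairs. It stood at 798, 48.3 and 1440 CPM at 6 h and at 40.3, 37.8 and 63.3 CPM at 24 h. The second 6 h library lay within the range of the 24 h libraries, so the groups overlapped. The log2 change was -4.02 (SE 0.81, adjusted p = 0.00262), it was -3.18 without the third 6 h library, and the adjusted p was 0.0661 in the fit of the 6 libraries alone.

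The same 6 h libraries, the first and the third, also held the most reads of midgut miRNAs. The 6 midgut miRNAs together made up 1.78%, 0.664% and 2.10% of miRNA reads in the 6 h libraries and 0.576%, 1.22% and 0.679% in the 24 h libraries. None of the 6 was called and none was at 0 in a library. miR-1174, which is known to act in the mosquito gut in sugar and blood intake, stood at 540, 190 and 609 CPM at 6 h and at 84.7, 10.7 and 127 CPM at 24 h (log2 -2.59, SE 1.61, adjusted p = 0.346). Its neighbour miR-1175-3p stood at 63.9, 37.7 and 160 CPM at 6 h and at 14.0, 2.58 and 41.0 CPM at 24 h (log2 -2.20, adjusted p = 0.389). miR-281-5p, the most abundant of the midgut list, overlapped between the times, at 15547, 6549 and 20444 CPM at 6 h and at 5393, 11538 and 7295 CPM at 24 h. It made up most of the summed share, with means of 1.44% of miRNA reads at 6 h and 0.793% at 24 h. The members did not move as one. miR-375 of the same list went the other way (log2 1.43, adjusted p = 0.0973), and its lowest 6 h library was the third. The part that gut tissue in the preparations had in the fall of miR-92a-3p was not tested.

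miR-124 and miR-12-3p fell by less and at low levels. miR-124, a miRNA of neurons, stood at 10.5, 8.15 and 8.62 CPM at 6 h and at 3.64, 4.61 and 5.49 CPM at 24 h, a 1.99-fold fall (log2 -0.99, SE 0.27, adjusted p = 0.0227). miR-12-3p stood at 107, 101 and 92.6 CPM at 6 h and at 51.2, 55.3 and 81.6 CPM at 24 h, a 1.60-fold fall (log2 -0.68, SE 0.20, adjusted p = 0.0355). Neither showed overlap between the times, yet both calls were fragile. Leaving out the first 6 h library, the first 24 h library or the second 24 h library ended the call of miR-124, with adjusted p values of 0.0699, 0.114 and 0.0747. The call of miR-12-3p ended without any 1 of the 6 libraries except the third of 24 h, with adjusted p values of 0.0564 to 0.158. Fitting the 6 libraries alone gave 0.0543 for miR-124 and 0.104 for miR-12-3p. miR-12-5p, the major arm, stood at 2509 ± 344 CPM at 6 h and 2257 ± 453 CPM at 24 h (log2 -0.15, adjusted p = 0.742).

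For 4 precursors the balance of the arms changed, of 28 with both arms measured (14.3%, limma on the log2 ratio of 5p to 3p reads, adjusted p under 0.05). In miR-278 the 5p arm held 57.1%, 69.0% and 69.1% of the reads at 6 h and 18.8%, 26.3% and 27.5% at 24 h. The major arm was thus 5p in each 6 h library and 3p in each 24 h library, and the log2 ratio changed by -2.57 (SE 0.28, adjusted p = 6.00e-06). miR-278-3p itself stood at 631 ± 73.3 CPM at 6 h and 803 ± 115 CPM at 24 h (log2 0.35, edgeR adjusted p = 0.178). Since both arms are cut from 1 precursor and the ratio is taken within a library, this shift does not depend on the library scaling.

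miR-2944b turned the other way. Its 5p arm held 8.33%, 28.6% and 0% of the reads at 6 h and 92.9%, 84.2% and 91.7% at 24 h, a change in the log2 ratio of 5.74 (SE 0.57, adjusted p = 4.85e-06). These shares rest on few reads at 6 h, where 5p had 3 reads in all, and the change was 6.47 without the second 6 h library, 5.19 without the third and 3.82 with 5 in place of 0.5 added to each count. The adjusted p stayed under 0.05 in each. miR-2944b-3p stood at 2.1 ± 1.36 CPM at 6 h and 4.15 ± 1.70 CPM at 24 h, and was not called. For miR-1889, a mosquito miRNA, the 5p arm went from 86.7%, 87.1% and 90.9% to 96.9%, 96.6% and 95.5% (log2 ratio change 1.81, SE 0.34, adjusted p = 0.00139).

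The ratio of miR-92a changed by 3.19 towards 5p (SE 0.90, adjusted p = 0.0254), since 3p fell while 5p stayed rare, at most 1.91% of the reads. That call was lost when the first or the third 6 h library, or the first or the second 24 h library, was left out, with adjusted p values of 0.0843 to 0.0965, and the change was 2.12 without the third 6 h library and 4.34 without the second. Of the precursors with arms that rose, miR-275 had a change in the log2 ratio of -1.18 (adjusted p = 0.162), miR-305 of 0.31 (0.578), miR-276 of 0.18 (0.578) and miR-263a of -0.25 (0.710). None of these 4 passed the test. miR-8 had a change of -0.48 (adjusted p = 0.159).

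**Figure D3:**
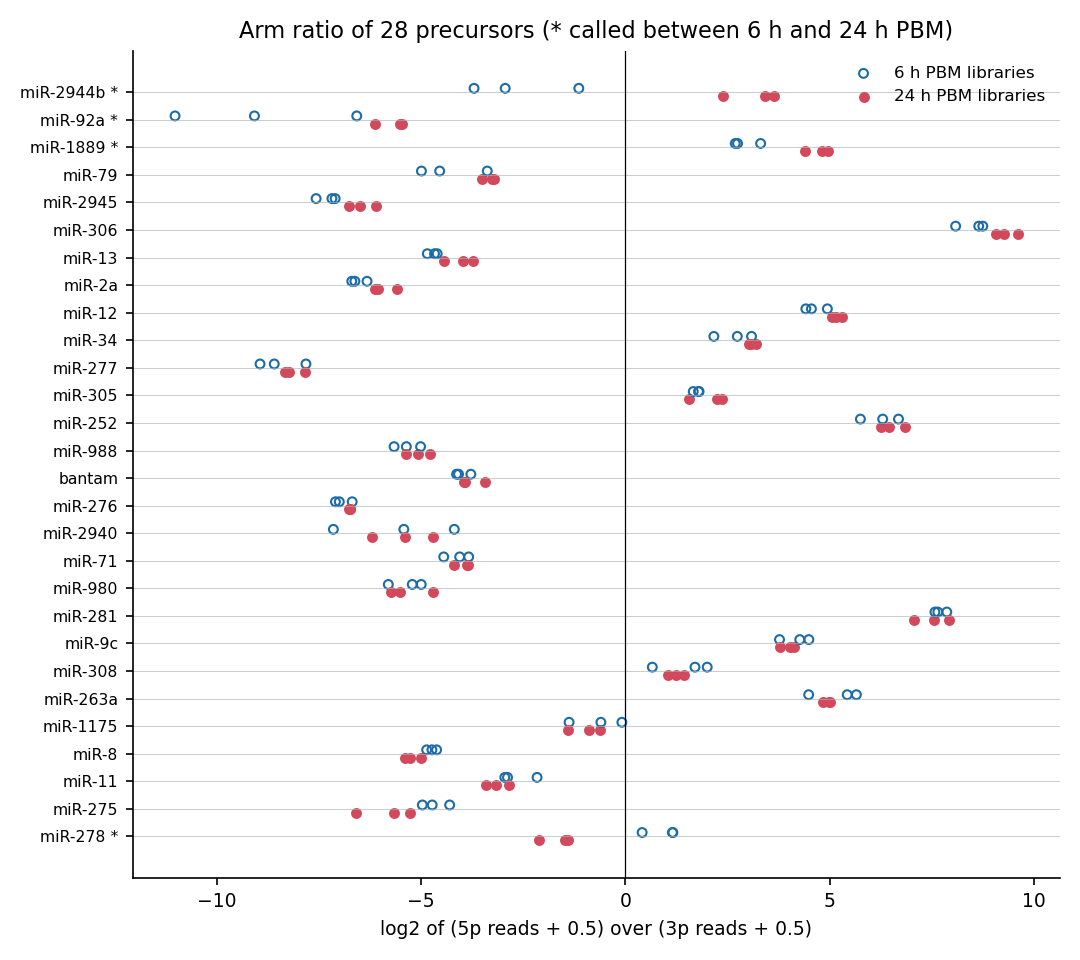
Arm ratio of the 28 precursors, as log2 of 5p reads over 3p reads with 0.5 added to each (horizontal axis), with open circles for the 6 h libraries, filled circles for the 24 h libraries and an asterisk for the 4 called precursors. The points of miR-278 move from the right of 0 (more 5p reads) to the left, those of miR-2944b move from left to right, and no other precursor has all its points change sides.

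Of the 10 most abundant miRNAs of the tissue, miR-275-3p and miR-276-3p rose and the other 8 were not called. Together the 10 held 87.2% ± 1.05 of the miRNA reads at 6 h and 86.1% ± 0.359 at 24 h. miR-8-3p, which in the fruit fly promotes growth through insulin signalling in the fat body and in this mosquito is needed for yolk secretion, made up 55.3% ± 2.22 and 55.7% ± 0.642 of the reads. Its level overlapped between the times, at 514064, 592244 and 539271 CPM at 6 h and 561161, 547124 and 615543 CPM at 24 h (log2 0.07, SE 0.13, adjusted p = 0.793). Bantam-3p, from a growth-promoting miRNA of the fruit fly, had a log2 difference of -0.16 (adjusted p = 0.588). miR-184, which acts in the female germline of the fruit fly, varied widely among the 6 h libraries, from 39970 to 121040 CPM, and had a log2 difference of -0.40 (adjusted p = 0.674). miR-11-3p, miR-14 and miR-2940-3p had log2 differences of -0.11, -0.14 and -0.09, and none was called. miR-317 had a log2 difference of 0.72 (adjusted p = 0.223), and miR-8-5p, the minor arm, of -0.39 (adjusted p = 0.130).

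Of the 97 miRNAs not called, 45 lay within 1.2-fold and 75 within 1.5-fold of no change, and 8 differed more than 2-fold. Those 8 were miR-193, miR-375, miR-1889-5p and miR-2944b-3p, higher at 24 h, and miR-2942, miR-1175-3p, miR-1175-5p and miR-1174, lower. The groups did not overlap for 22 of the 97, with 6 higher and 16 lower at 24 h. At an unadjusted p under 0.05, 15 of the 97 passed, 7 higher and 8 lower. miR-375, of the midgut list, stood at 112, 60.7 and 38.1 CPM at 6 h and at 269, 227 and 72.4 CPM at 24 h (log2 1.43, adjusted p = 0.0973). miR-34-5p stood at 4142, 4181 and 3810 CPM at 6 h and at 8422, 4888 and 6997 CPM at 24 h (log2 0.74, adjusted p = 0.0571), without overlap.

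The 6 h and 24 h libraries with the same replicate number deviated together, and with the replicate number as a block 3 further miRNAs were called. miR-1889-5p stood at 124, 177 and 222 CPM at 6 h and at 310, 409 and 414 CPM at 24 h, with an adjusted p of 0.0896 that became 0.00222 with the block. miR-11-5p had a log2 difference of -0.57 with an adjusted p of 0.0973, and 0.00450 with the block. miR-252-3p had a log2 difference of -0.45 with an adjusted p of 0.164, and 0.0398 with the block.

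The other miRNAs were grouped by genomic cluster or family, and their counts stand beside 14.9% called and 57 of 114 log2 differences above 0 over all tested miRNAs. The group of miR-277, miR-34 and miR-317 includes regulators of amino acid breakdown and ageing in the fruit fly. None of its 5 miRNAs was called, and all 5 differences were positive with a median log2 of 0.57. The CLIP-seq peaks of miR-277 and miR-34 lie 652 bases apart on the plus strand of supercontig 1.265. That of miR-317-1 lies on the minus strand of supercontig 1.153. None of the 3 members of the let-7 complex, which acts in the timing of development, was called (log2 -0.11 to 0.63). Within the miR-12 cluster, 1 of 5 fell and 4 were not called, with miR-283 at a log2 difference of 0.99 (adjusted p = 0.164). The CLIP-seq peaks of miR-12 and miR-1889 lie 401 bases apart on the minus strand of supercontig 1.68. The miR-2 family is known in the fruit fly for repressing cell death genes. Of 12 miRNAs of this family and miR-71, none was called (log2 -0.57 to 0.50). miR-2b and miR-2c had counts within 0.493% of each other in all 15 libraries, so reads may have been counted for both.

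The miR-9 and miR-306 group had none of 8 called (log2 -0.94 to 0.76), and miR-279 with miR-996 none of 2. Among 13 miRNAs linked to metabolism and growth, 2 rose (both arms of miR-276), 1 fell (miR-278-5p) and 10 were not called, with a median log2 of 0.08. The miR-92 family had 1 of its 3 tested members lower, miR-92a-3p. The Hox locus had none of 3 tested members called, and a list of 10 further mosquito miRNAs (miR-1174, miR-1175, miR-1889, miR-1890, miR-1891, miR-2940 and miR-2942), which leaves out those of the ovary and embryo list, had none. Of the 28 tested miRNAs in no list, 2 rose, both arms of miR-263a. The muscle miRNAs miR-1 and miR-133 were not called (log2 0.78 and -0.15), and of 5 tested neural miRNAs 1 fell, miR-124. The miRNAs under the filter were 10, with at most 11 reads in any of the libraries, namely miR-219, miR-263b-3p, miR-282-3p, miR-2943, miR-2944a-3p, miR-309b-5p, miR-315-3p, miR-92b-5p, miR-932-3p and iab-4-3p.

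**Figure D4:**
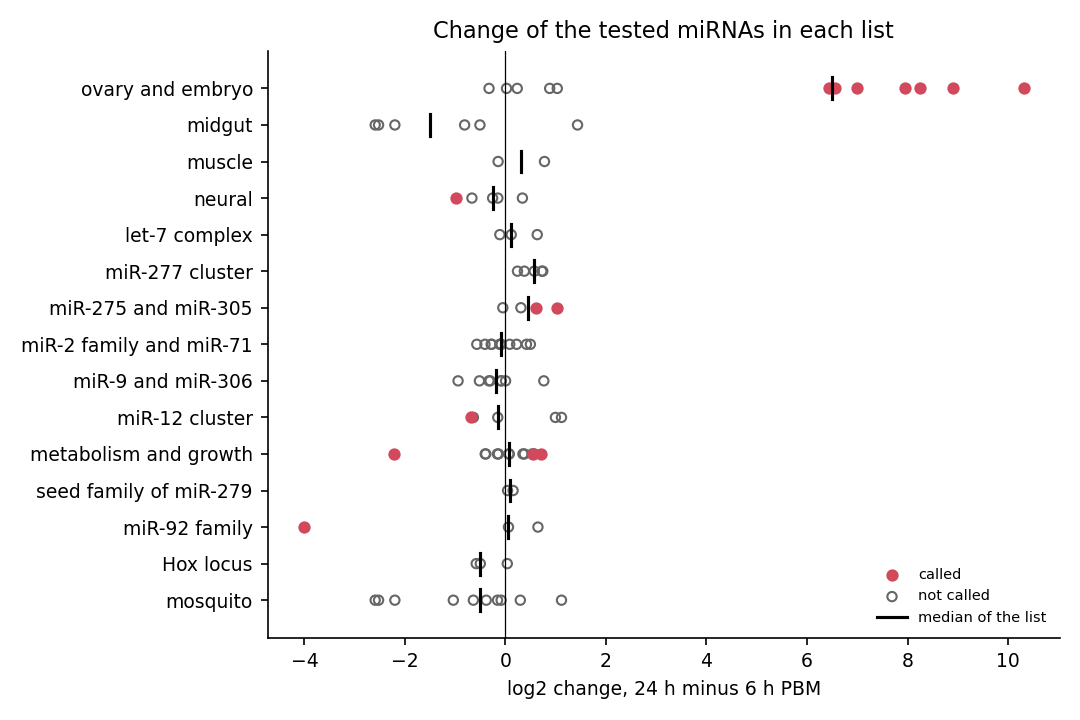
Log2 change from 6 h to 24 h PBM of each tested miRNA, grouped by list (1 circle per miRNA, filled where called, with a bar at the median of the list). The ovary and embryo list spans -0.33 to 10.31 with 7 called, the midgut list has its median at -1.51, and most miRNAs of the other lists lie close to 0.

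The remaining times place the step within the course of the reproductive cycle. These comparisons share libraries with the step, so each is given by its own values and the directions are not independent of each other. At 6 h against 72 h PE, 12.3% of the tested miRNAs were called, at 24 h against 72 h PE 23.7%, and at 36 h against 24 h 17.5%. Of the 13 miRNAs that rose in the step, 4 were lower at 6 h than at 72 h PE (3.51% of all tested were), 3 were higher (8.77% of all) and 6 were not called. At 24 h, 12 of the 13 were above 72 h PE (17.5% of all tested, with 6.14% below). From 24 h to 36 h, 4 went on rising (9.65% of all), 3 fell (7.89% of all) and 6 were not called. The mean was highest at 24 h of the 5 times for 7 of the 13, against 22 of the 114 tested (19.3%).

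The 4 that were lower at 6 h than before the meal were miR-989, miR-286b, miR-2941 and miR-2946. The mean of miR-989 was 908 CPM before the meal (72 h PE) and 2.26, 2794, 235 and 877 CPM in turn at the 4 times after it. Its fall from 72 h PE to 6 h was -8.69 on the log2 scale (adjusted p = 2.30e-05), its 24 h level did not pass the test against 72 h PE (log2 1.62, adjusted p = 0.113), and it fell again from 24 h to 36 h (log2 -3.57, adjusted p = 0.00365). The mean of miR-2941 was 347 CPM before the meal, then 5.33, 2606, 4632 and 6328 CPM. Its log2 difference between 24 h and 36 h was 0.83 and was not called (adjusted p = 0.228).

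miR-286b, miR-2944b-5p, miR-309a and miR-309b-3p reached their highest means at 36 h. miR-286b went from 739 CPM at 24 h to 4282 at 36 h (log2 2.53, adjusted p = 0.00225), and miR-309a from 127 to 1380 (log2 3.45, adjusted p = 0.000718). miR-309b-3p and miR-2944b-5p rose by 3.34 and 3.20 on the log2 scale over the same interval. For these 4, the rise from 6 h to 24 h was the earlier of 2 rises that passed the test.

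The 275 and 305 pair and miR-276-5p were already higher at 6 h than at 72 h PE. The mean of miR-275-3p was 7027 CPM before the meal and 14314, 29161, 17486 and 13406 CPM at the 4 times after it, with a log2 rise of 1.03 up to 6 h (adjusted p = 0.00404) and a log2 fall of -0.74 from 24 h to 36 h (adjusted p = 0.0253). miR-305-5p had 2008 CPM before the meal, then 3686, 5582, 4285 and 2946 CPM, and its difference between 24 h and 36 h did not pass the test (log2 -0.38, adjusted p = 0.0788). miR-276-5p rose by 0.67 on the log2 scale up to 6 h (adjusted p = 0.0122) and fell after 24 h (log2 -0.58, adjusted p = 0.0253). miR-276-3p had nearly equal means of 23989 CPM at 72 h PE and 24124 CPM at 6 h. miR-263a-5p had a mean of 7784 CPM at 72 h PE, 4967 at 6 h and 15623 at 24 h, and its difference at 6 h was not called (log2 -0.65, adjusted p = 0.233).

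Of the 4 miRNAs that fell in the step, 3 had been higher at 6 h than at 72 h PE (8.77% of all tested were). These were miR-278-5p, miR-92a-3p and miR-12-3p, and the same 6 h libraries enter both comparisons. The mean of miR-278-5p was 592 CPM before the meal, then 1196, 257, 252 and 503 CPM. Its 24 h level was below that of 72 h PE (log2 -1.21, adjusted p = 0.00311). miR-92a-3p had 51.7 CPM at 72 h PE and 47.1 at 24 h, with 762 ± 696 at 6 h between them. miR-124 was higher at 36 h than at 24 h (log2 1.2, adjusted p = 0.00743).

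**Figure D5:**
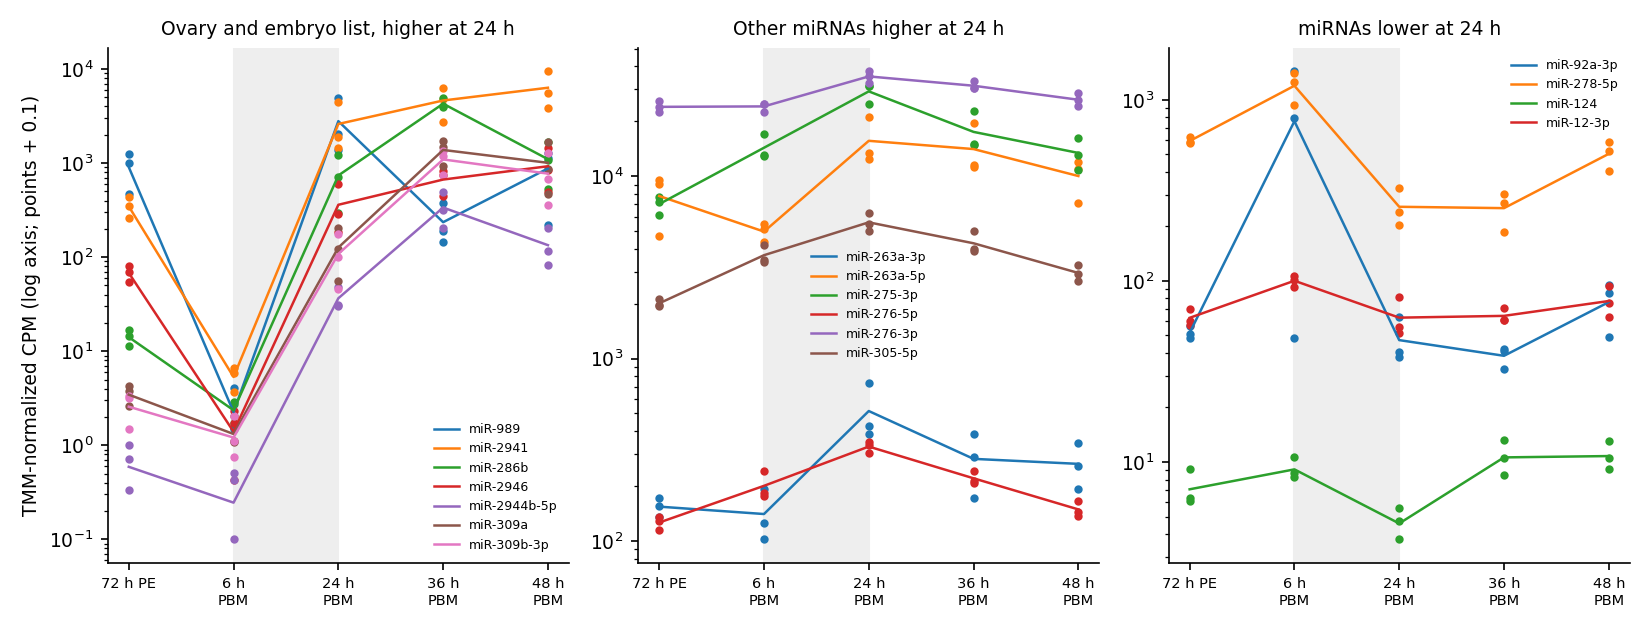
Level of the 17 called miRNAs before the meal (72 h PE) and at 4 times after it (CPM on a log scale, lines through the means, points for single libraries with 0.1 added, and the step shaded). miR-989 dips to 2.26 CPM at 6 h and peaks at 24 h, miR-286b peaks at 36 h, miR-275-3p peaks at 24 h, and miR-278-5p is highest at 6 h.

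AGO1 CLIP-seq, in which RNA crosslinked to Argonaute 1 by ultraviolet light is pulled down and sequenced, was available for 24 h PBM and 72 h PE and not for 6 h. It shows which precursors carried AGO1-bound reads at the end of the step, summed over both arms. Of 687 genes and precursors tested, 24.6% were called between 72 h PE and 24 h PBM, 13.1% as higher. Among 50 tested miRNA precursors 8 were higher, a share close to that of all features, and none was lower, where 11.5% of all features were (edgeR). The 8 were miR-263a, miR-275, miR-276, miR-277, miR-281, miR-283, miR-305 and miR-33. The 4 precursors of the second kind of risers were thus all among the 8. Every tested precursor except miR-1175 and miR-308 (log2 -0.05 and -0.03) had a positive log2 difference, most of them without a call. A positive value of a precursor that was not called is thus not particular to it. The tissue check in the same table was vitellogenin A1, with 30, 71 and 90 counts at 72 h PE and 1931, 2394 and 1723 counts at 24 h PBM.

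miR-305 had 337, 401 and 385 CLIP-seq counts at 72 h PE and 4140, 3635 and 4242 counts at 24 h PBM, in libraries of 69424 to 132758 counts. The groups were far apart, and the log2 change was 3.79 (SE 0.32, adjusted p = 1.26e-09). In the small RNA libraries at the same 2 times it was 1.47 for miR-305-5p and 3.53 for miR-305-3p. miR-275 had 402, 406 and 330 counts at 72 h PE and 2191, 1555 and 1661 counts at 24 h (log2 2.59, adjusted p = 3.01e-07). Its arms had small RNA changes of 2.05 for miR-275-3p and 4.23 for miR-275-5p. miR-276 had a log2 change of 1.76 (adjusted p = 0.000204), beside 0.55 and 1.38 for its arms, and miR-263a of 1.28 (adjusted p = 0.00644), beside 1.01 and 1.74. Whether the changes differ between the assays was not tested.

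Of the ovary and embryo miRNAs that rose in the step, miR-309b, miR-2946, miR-2941 and miR-989 had too few AGO1 CLIP-seq counts to test. No CLIP-seq peak was annotated to miR-286b, miR-309a or miR-2944b. miR-989 had 3, 6 and 7 counts at 72 h PE and 14, 20 and 77 counts at 24 h, with the highest count in the third 24 h library. miR-2946 had 0, 0 and 3 counts at 72 h PE and 7, 7 and 15 at 24 h. miR-2941 had 1 count in the 6 libraries, and miR-309b had 1 at 72 h PE and 5 at 24 h. miR-2945 of the same list, which did not pass the test in the step, had 172, 171 and 141 counts at 72 h PE and 239, 159 and 144 at 24 h (log2 0.48, adjusted p = 0.242). Of the miRNAs that fell in the step, the precursor of miR-278 had 52, 36 and 27 counts at 72 h PE and 65, 52 and 42 counts at 24 h (log2 0.80, adjusted p = 0.141). miR-92a had 56, 1 and 0 counts at 72 h PE and 61, 3 and 3 at 24 h, so that 1 library held nearly all counts at each time.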

How the data were processed

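Per the labels' protocols, small RNA libraries were made from TRIZOL-extracted RNA with Illumina's TruSeq kit for small RNA. Bowtie2 (2.2.3), bedtools (2.17.0), TopHat2 (2.0.14) and R (3.1.2) appear in the submitters' processing notes with no role, and the mapping settings are not stated in the sources used. The authors deposited raw read counts of 124 mature miRNAs (miRBase release 21), in 3 columns for each of 5 times. They also deposited RPM of the same miRNAs, which served here for the total reads of each library and for 1 alternative. For CLIP-seq, the authors deposited counts for each peak in each library on AaegL3 supercontigs, per the file headers.

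The main test was the two-sided robust quasi-likelihood F test of edgeR 4.0.16 (R 4.3.3), in 1 model over the 15 small RNA libraries, after TMM scaling and filterByExpr, with Benjamini-Hochberg adjustment over the 114 tested miRNAs at 0.05. With all times in 1 model, the 3 libraries of each time share 1 estimate of the spread. Adjusted p values are edgeR's unless another tool is named. Arm ratios, with 0.5 added to each count, were tested with limma 3.58.1 for precursors with both arms past the filter. CLIP-seq counts of all peaks of a gene or precursor, copies included, were added up and tested in the same way. Counting intervals are exact at 95%.

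Every called miRNA is named with its values in the 6 libraries. The 10 most abundant miRNAs, the list members, by value or range, and those under the filter are also named. The members and lists were chosen with earlier results of these data known. The labels do not say that a replicate number marks a cage or day. The deviations of 6 h and 24 h libraries of the same number from their time means correlated across miRNAs at 0.306, 0.341 and 0.431. Each 6 h library correlated best with the 24 h library of its own number. The numbers were therefore taken to pair the samples, and a fit with that block was compared. Alternatives were other scalings and filters, DESeq2 1.42.0, limma on log2(RPM + 1), the 6 libraries alone and leaving out each library. The methods were tested on simulated data. For the main test, counts were drawn independently for each library around means pooled over the 15 libraries. Equal numbers of rises and falls were placed at 24 h, and no replicate effect was put in. The rates below hold for that setting and may differ in the real data, where replicates deviate together and some miRNAs are near 0 at 6 h. The main test there recovered 50.6% of true 2-fold changes, 87.5% of 4-fold and 94.4% of 16-fold changes, and 3.12% of its calls were false. A miRNA that was not called can thus still differ 2-fold. Sequences of the mature miRNAs were not used here.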

Additional observations from a re-analysis of the deposited data

How the results depend on the processing

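Of the 17 called miRNAs, 12 passed the threshold under all 15 alternatives, and none changed direction. The number called higher, 13 in the main analysis, stayed within 12 to 16. The number called lower, 4 in the main analysis, was 7 with RLE factors, 1 with the 6 compared libraries alone, 10 with DESeq2, and 2 to 7 when a library was left out in turn. The 5 that lost their call were miR-12-3p, miR-124, miR-276-5p, miR-305-5p and miR-92a-3p. With the replicate block, 14 were higher and 6 lower; it added miR-1889-5p, miR-11-5p and miR-252-3p and changed no other call, arm ratios included. Of the 97 not called, 10 were called under at least 1 alternative. Adding 1 to the RPM lowered the log2 change of miRNAs near 0 at 6 h, to 8.52 for miR-989 and 3.11 for miR-2944b-5p. Changes of scaling moved the median of all tested miRNAs to at most -0.05. Few reads at 6 h limit the size, not the direction, of the rises in the ovary and embryo list.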
